A study of Mus musculus with 8 samples.

Results

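The RNA-seq values of 8 genes for T-box transcription factors, T, Eomes, Tbx1, Tbx2, Tbx3, Tbx4, Tbx6 and Tbx20, were followed in wild-type (WT) and CTCF-K20R mouse cells. The genes were taken by name from a table of 18094 genes, and each of the 8 names matched 1 row. The cells were the mouse embryonic stem cell (mESC) line E14Tg2A, collected as mESCs on day 0, and the embryoid bodies (EBs) made from them, collected on day 4. Both genotypes were sequenced on both days with 2 libraries each, which gives 8 libraries in 4 groups. In the CTCF-K20R cells, lysine 20 of the chromatin protein CTCF had been changed to arginine by CRISPR/Cas9. The day 0 cells of both genotypes grew on inactivated mouse embryo fibroblasts, in serum with leukemia inhibitory factor and the inhibitors CHIR99021 and PD0325901. The EBs of both genotypes formed in hanging drops in serum without that factor. The mutant cells are edited clones, and the labels do not say which clone or culture a library came from, so genotype cannot be told apart from clone or culture.

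T-box proteins share a DNA-binding domain, named after T (Brachyury), that recognises a short core sequence. In the early embryo, Eomes is switched on at the start of gastrulation under Nodal signalling and is needed for cardiac mesoderm and definitive endoderm. T follows Wnt signalling in the primitive streak, and Tbx6 acts in the presomitic mesoderm that forms from it. Tbx1, Tbx2, Tbx3 and Tbx20 are later regulators of the heart and pharynx, Tbx2 and Tbx3 being mainly repressors, and Tbx4 acts in the hindlimb, lung and allantois. Tbx3 is also known in mESCs, where it belongs to the network of naive pluripotency.

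The promoters of T, Eomes and Tbx6 are shown because these 3 genes had the lowest fold changes of the tested members on day 4. RefSeq promoters on GRCm38.p6 were matched for 6 of the 8 genes, and the 250 bases before the annotated start were read on the strand of the gene, 5′ to 3′. Capitals mark matches on either strand to 4 motifs, which were chosen after the sequences had been read. These are the core of the T-box site (AGGTGT), the core of the LEF/TCF site of Wnt signalling (CTTTGA), the TATA box (TATAAA) and the CCAAT box. No 2 of the matches overlap. Only exact matches were counted, so variants of a motif, such as tatataag near the end of the Eomes sequence, are not marked.
T, chr17:8434173-8434422, plus strand: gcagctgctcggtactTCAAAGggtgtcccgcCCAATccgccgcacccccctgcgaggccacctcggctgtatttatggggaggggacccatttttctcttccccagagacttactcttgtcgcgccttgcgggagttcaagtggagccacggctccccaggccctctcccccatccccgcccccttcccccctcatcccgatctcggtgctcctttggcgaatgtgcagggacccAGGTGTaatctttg
Eomes, chr9:118477939-118478188, plus strand: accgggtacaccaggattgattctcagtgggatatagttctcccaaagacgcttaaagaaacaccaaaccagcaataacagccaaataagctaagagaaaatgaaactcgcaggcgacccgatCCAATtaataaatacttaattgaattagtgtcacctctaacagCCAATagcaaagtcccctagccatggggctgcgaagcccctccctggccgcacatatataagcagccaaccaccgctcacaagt
Tbx6, chr7:126781233-126781482, plus strand: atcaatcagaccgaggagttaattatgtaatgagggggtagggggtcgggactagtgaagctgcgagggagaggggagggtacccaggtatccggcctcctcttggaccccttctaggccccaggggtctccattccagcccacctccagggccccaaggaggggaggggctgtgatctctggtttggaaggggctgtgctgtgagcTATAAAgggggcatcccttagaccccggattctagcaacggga

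The T promoter held the T-box core from 14 to 9 bases before the start, the LEF/TCF core on the reverse strand from 234 to 229 bases before it, and a CCAAT box from 218 to 214 bases before it. The Eomes promoter held a CCAAT box at 127 to 123 and at 84 to 80 bases before the start. The Tbx6 promoter held a TATA box at 43 to 38 bases before the start. Among 32851 mouse promoters of the same length, 11.8% held the T-box core, 13.8% the LEF/TCF core, 12.4% the TATA box and 33.8% the CCAAT box on either strand, so each match is a common one. Of the other matched members, Tbx4 held a TATA box on the reverse strand from 85 to 80 bases before the start, 1 of 2 Tbx1 promoters held the T-box core from 76 to 71 bases before it, and Tbx20 held none of the 4.

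The deposited values are gene counts normalized by the authors. Library totals ranged from 19412659 to 21311513 normalized counts, and 1 read was worth about 0.814 to 1.14 normalized counts. A count of 3 reads, 2.44 to 3.43 normalized counts, was taken as the floor of detection. The 2 WT libraries of each day differed by less than the sampling noise of reads, with squared differences at 0.314 and 0.277 of that noise against 4.00 and 4.36 for the CTCF-K20R pairs. Each WT pair was therefore averaged and counted as 1 sample, so a genotype comparison rests on 1 WT and 2 CTCF-K20R samples. The spread came from the CTCF-K20R pairs alone, and WT was assumed to vary like them. limma was fitted to log2(value + 1) over the 15767 genes whose mean reached 10 normalized counts, which kept 6 of the 8 members and left out Tbx1 and Tbx2. A gene was called when its log2 fold change passed 1 in either direction with a Benjamini-Hochberg adjusted p under 0.05. The p-values measure the spread between these samples, which may be technical.

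On day 4, CTCF-K20R EBs held less T, Eomes, Tbx6 and Tbx3 mRNA than WT EBs and more Tbx4 mRNA. Of the 6 members tested, 4 were called lower and 1 higher, against 8.65% of all tested genes called lower and 6.89% called higher. The higher one, Tbx4, passed the filter only through its CTCF-K20R EB libraries. With quantile normalization the order of the calls over all genes turned, to 1249 lower and 1448 higher. The 6 members had a median log2 fold change of -2.16, and all 15767 genes had one of 0.01. On day 0, 1 member, T, was called lower and none higher, by limma with Benjamini-Hochberg adjustment, against 2.60% and 1.19% of all genes. At an unadjusted p under 0.05, 6 of 6 members differed on day 4 and 3 of 6 on day 0, where 49.8% and 31.5% of all tested genes did. The genotype difference itself changed between the days for 5 of the 6 members, downwards for 4 and upwards for 1, against 6.04% and 6.84% of all genes, or 12.9% in either direction.

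Markers of other cell types differed between the same EBs, where 6.89% of all tested genes were called higher in CTCF-K20R and 8.65% lower. The summed level of 8 pluripotent cell markers was 57788 to 57843 normalized counts in CTCF-K20R EBs and 39627 to 39799 in WT EBs, and 5 of the 8 were called higher. Utf1, a chromatin factor of pluripotent cells, was at 4802 to 5069 against 319.7 to 326.3 (log2 fold change 3.93 ± 0.0556, adjusted p = 7.67e-06, limma), and Sox2, which neural cells also express, was at 3192 to 3240 against 607.6 to 618.2 (2.39 ± 0.0481, adjusted p = 1.58e-05). Of the 3 not called, Sall4 was at 4363 to 4959 against 8146 to 8156 (-0.81, adjusted p = 0.000992), Lin28a had a fold change of -0.26 (adjusted p = 0.0102) and Pou5f1 had one of 0.78 (adjusted p = 0.00011), all under the minimum fold. The summed level of 7 trophoblast markers was 283.3 to 318.8 in CTCF-K20R EBs and 1322 to 1344 in WT EBs. Of the 7, 4 were called lower, among them Cdx2, also a gene of the posterior streak, and Hand1, also on the cardiac list. Hand1 passed the filter only through WT EBs, where it is high. Of 5 neural ectoderm markers, 2, Sox1 and Pax6, were called higher, and the sum was 2683 to 2723 against 1934 to 1972. Nes, which was not called (0.41), made up 2504.4 to 2538.5 of that sum in CTCF-K20R EBs and 1883.6 to 1921.1 in WT EBs. Pou3f2 (1.62) and Zic1 (-0.35) were not called either. From day 0 to day 4, Pax6 rose in CTCF-K20R cells (log2 change 2.24). Sox1 fell in CTCF-K20R cells (log2 change -1.63), and its WT difference was -5.63 with no test. On day 0, 10 fibroblast markers, which the feeder cells would carry, summed to 510.0 to 521.2 in WT mESCs and 155.7 to 171.2 in CTCF-K20R mESCs, of which Thy1 made up 458.5 to 465.4 and 103.3 to 104.2. Col1a1 had the opposite order, with 16.0 to 17.4 in WT mESCs and 32.2 to 34.3 in CTCF-K20R mESCs, and its day 0 fold change of 0.95 was not called (adjusted p = 0.179, limma). Col1a2, Acta2 and Prrx1 were between 2.20 and 28.1 in the mESC libraries, Col3a1 and Lum were between 0 and 1.51, and Twist2, Postn and Dcn were at 0 in all 4. The part of these markers in the T-box results was not tested. In these bulk samples, fewer cells of a type and less RNA per cell cannot be told apart.

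**Figure D1:**
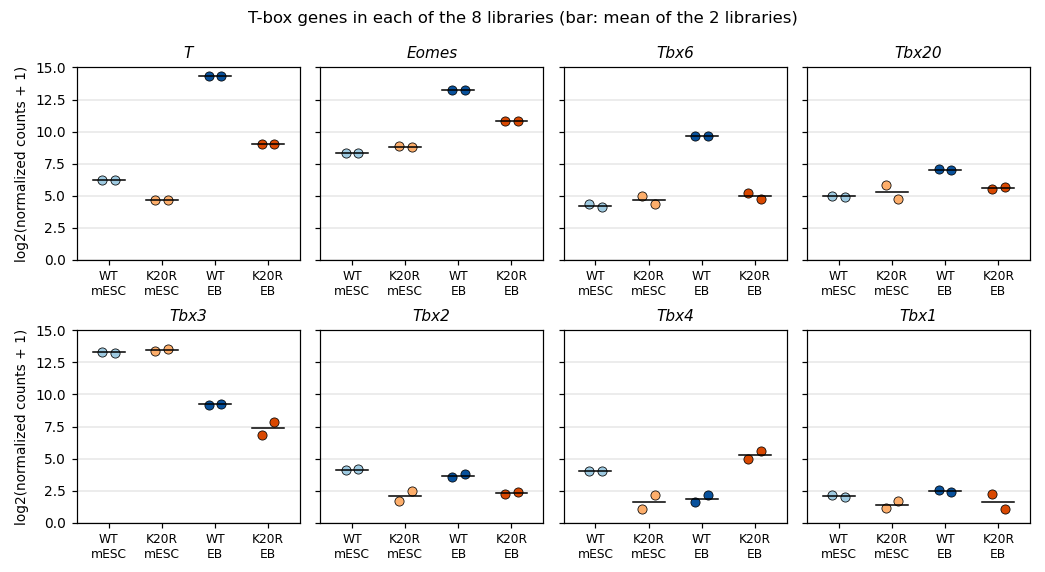
The log2(normalized counts + 1) of each T-box gene (vertical axis) in the 2 libraries of each group (points), with the mean of the 2 libraries as a bar. T, Eomes and Tbx6 are highest in WT EBs, Tbx3 is highest in mESCs of both genotypes, and Tbx4 is highest in CTCF-K20R EBs.

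T (Brachyury, ENSMUSG00000062327, chr17:8434423-8442496 on GRCm38, plus strand) marks the primitive streak and nascent mesoderm. Its level was 73.2 and 72.6 normalized counts in WT mESCs and 25.1 and 24.1 in CTCF-K20R mESCs. On day 4 it was 20696 and 20904 in WT EBs, and the mutant EBs had 520.3 and 514.6. WT lay above CTCF-K20R in every library on both days with no overlap, and both mutant libraries lay below both WT libraries at 41.7% of all tested genes on day 4 and at 40.3% on day 0. The log2 fold change of CTCF-K20R against WT was -5.33 ± 0.136 (SE) on day 4, a 40.1-fold lower level, with an adjusted p of 2.53e-05 in limma. Of the 15767 tested genes, 89 had a fold change as low or lower, T included. On day 0 the difference was -1.53 ± 0.136 with an adjusted p of 0.00291 in limma, a 2.89-fold lower level. The day 0 call was lost when the day 0 libraries were fitted alone (adjusted p = 0.0990 in limma) or without either CTCF-K20R EB library (0.0687 and 0.0684), with the fold change at -1.53 in each case.

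The T transcript was higher on day 4 in both genotypes. Of the 6 tested members, 3 rose and 1 fell over the days in CTCF-K20R cells, against 14.5% and 11.6% of all genes, or 26.1% in either direction. T rose there by 4.34 ± 0.111 log2 units (adjusted p = 6e-06, limma). In WT cells the difference was 8.14 on that scale, or 285-fold, with 1 sample on each day and no test. The genotype difference was 3.80 log2 units lower on day 4 than on day 0 (-3.80 ± 0.192, adjusted p = 0.000305 in limma).

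Eomes (ENSMUSG00000032446, chr9:118478212-118486132, plus strand) acts upstream of Mesp1 in the cardiac lineage and also in trophoblast. Its level was 317.1 and 314.9 normalized counts in WT mESCs and 456.5 and 442.6 in CTCF-K20R mESCs, so the mutant libraries were the higher ones on day 0. On day 4 the order was the opposite, with 9931 and 9866 in WT EBs and 1845 and 1777 in CTCF-K20R EBs. The day 4 log2 fold change was -2.45 ± 0.0685, a 5.47-fold lower level (adjusted p = 3.01e-05, limma). The day 0 fold change of 0.51 ± 0.0685 had an adjusted p of 0.0102 in limma but stayed under the minimum fold, so it was not called. Between the days the genotype difference moved by -2.96 ± 0.0969 (adjusted p = 0.000108, limma). Eomes rose by 2.01 ± 0.0559 on the log2 scale in CTCF-K20R cells (adjusted p = 7.61e-06, limma), and its WT difference was 4.96, or 31.3-fold, with no test. An antisense gene, Gm33460, overlaps Eomes, and the sources used here do not give the use of strand in counting, so reads of the 2 genes could not be told apart.

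Tbx6 (ENSMUSG00000030699, chr7:126781483-126785560, plus strand) is a presomitic mesoderm factor. In WT mESCs it was at 19.4 and 16.2 normalized counts, and in CTCF-K20R mESCs at 30.2 and 19.3. In WT EBs it was at 783.6 and 793.8, and in CTCF-K20R EBs at 36.4 and 25.6. The CTCF-K20R EB libraries lay within or close to the range of the mESC libraries, and both WT EB libraries stood far above all 6 others. The day 4 log2 fold change was -4.65 ± 0.415, a 25.1-fold lower level (adjusted p = 0.000788, limma), and on day 0 it was 0.42 ± 0.415 (adjusted p = 0.540). In CTCF-K20R cells the change from day 0 to day 4 was 0.32 on the log2 scale with a 95% interval from -0.52 to 1.17 (adjusted p = 0.449, limma). The WT difference was 5.39, or 44.3-fold, with no test. The shift of the genotype difference between the days was -5.07 ± 0.586 (adjusted p = 0.00341, limma). Its call was lost without either CTCF-K20R EB library, at -5.31 (adjusted p = 0.0511) and -4.82 (adjusted p = 0.0557).

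Tbx20 (ENSMUSG00000031965, chr9:24718138-24774303, minus strand) is a regulator of heart chamber growth. It was at 30.6 and 29.0 normalized counts in WT mESCs and at 55.5 and 25.1 in CTCF-K20R mESCs, where the 2 libraries lay on both sides of WT. In EBs it was at 131.6 and 127.0 in WT and at 44.9 and 51.2 in CTCF-K20R, with no overlap. On day 4, both mutant libraries lay below both WT libraries at 41.7% of all tested genes and above them at 43.3%. The day 4 log2 fold change was -1.41 ± 0.506, with a 95% interval from -2.68 to -0.15 and an adjusted p of 0.0759 in limma, so Tbx20 was not called. It passed the threshold when the EB libraries were fitted alone (adjusted p = 0.0250, limma), with all 8 libraries as separate samples (0.00798), and without either CTCF-K20R mESC library (0.0326 and 0.0289), at a fold change of -1.41 in each. The shift of the genotype difference between the days, -1.73 ± 0.715, was not called (adjusted p = 0.134, limma). It passed when each of the 8 libraries counted as a sample (adjusted p = 0.0176) and, at -2.29, without CTCF-K20R mESC replicate 2 (0.0431).

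**Figure D2:**
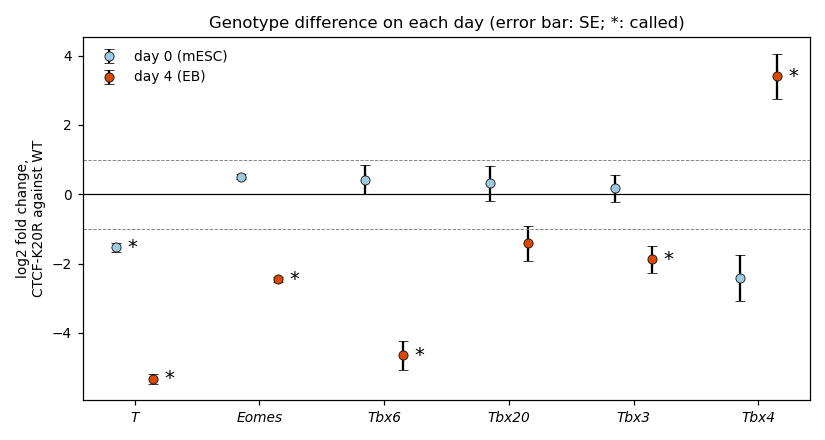
The log2 fold change of CTCF-K20R against WT (vertical axis) on day 0 and day 4 for the 6 T-box genes that were tested, with SE as error bars, asterisks at called values and dashed lines at the minimum fold. T is called on both days (-1.53 and -5.33), and Eomes, Tbx6, Tbx3 and Tbx4 on day 4.

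Tbx3 (ENSMUSG00000018604, chr5:119670669-119684724, plus strand) ran opposite to T and Eomes over the days. It was at 10039 and 9844 normalized counts in WT mESCs and at 10729 and 11695 in CTCF-K20R mESCs. The mutant libraries were the higher ones, but the fold change of 0.17 on day 0 had a 95% interval from -0.80 to 1.15 (adjusted p = 0.804, limma). On day 4, Tbx3 was at 577.6 and 617.4 in WT EBs and at 112.6 and 232.7 in CTCF-K20R EBs. The groups did not overlap, where 41.7% of all tested genes were lower in both mutant libraries and 43.3% higher. The 2 mutant libraries of Tbx3 stood further apart than the WT libraries. The day 4 log2 fold change was -1.88 ± 0.390, a 3.67-fold lower level (adjusted p = 0.0140, limma). This call was lost with no filter on low values (adjusted p = 0.0532) and without the mean-variance trend (0.0835). The shift of the genotype difference between the days was -2.05 ± 0.552 (adjusted p = 0.0457, limma), and it was lost in 6 of 19 alternatives, with adjusted p up to 0.164.

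Tbx3 fell between the days in CTCF-K20R cells (log2 change -6.10 ± 0.319, adjusted p = 5.25e-05, limma), and its WT difference was -4.05 with no test. Its antisense neighbours are Tbx3os1, which overlaps it, and Tbx3os2, which lies 0.370 kb beyond its end on the opposite strand. Tbx3os2 was at 13.2 and 13.6 normalized counts in WT mESCs and between 38.6 and 57.0 in CTCF-K20R mESCs, and its day 0 fold change of 1.73 was not called (adjusted p = 0.107, limma).

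Tbx4 (ENSMUSG00000000094, chr11:85886422-85916097, plus strand) was the member with more mRNA in CTCF-K20R EBs. It was at 31.0 and 48.4 normalized counts there and at 2.05 and 3.46 in WT EBs, about 27 and 44 reads against about 2 and 4. On day 0 the order was the opposite, with 15.4 and 15.5 in WT mESCs and 1.13 and 3.46 in CTCF-K20R mESCs, about 14 and 16 reads against about 1 and 3. Both genotypes therefore had a group near the floor, WT on day 4 and CTCF-K20R on day 0.

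The day 4 ratio of CTCF-K20R to WT lay between 9.49 and 24.9 over the 4 pairs of libraries, and their 95% counting intervals lay between 3.31 and 212. The log2 fold change was 3.40 ± 0.655 (adjusted p = 0.0107, limma), and 61 of the 15767 genes had one as high or higher, Tbx4 included. Without CTCF-K20R EB replicate 1 or 2 it was 3.72 and 3.09, and the call was lost (adjusted p = 0.0596 and 0.0765). On day 0 the ratio of WT to CTCF-K20R lay between 4.59 and 14.7, and the fold change of -2.42 ± 0.655 was not called (adjusted p = 0.0647, limma). The shift between the days, 5.82 ± 0.926 (adjusted p = 0.00941, limma), was matched or exceeded at 14 genes, Tbx4 included. Its call was lost without either CTCF-K20R EB library (adjusted p = 0.0634 and 0.0705). Over the 4 days Tbx4 rose by 3.69 ± 0.535 log2 units in CTCF-K20R cells (adjusted p = 0.00224, limma), and the WT difference was -2.13 with no test. These fold changes are on the log2(value + 1) scale, which understates changes of such low values.

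Tbx2 (ENSMUSG00000000093, chr11:85832551-85841948, plus strand), a repressor of chamber genes in the heart, lies 44.5 kb before Tbx4 on the same strand. It was below the filter, at 16.1 and 17.3 normalized counts in WT mESCs and 2.25 and 4.49 in CTCF-K20R mESCs. In EBs it was at 10.5 and 12.6 in WT and 3.58 and 4.32 in CTCF-K20R. The mutant libraries were the lower ones on both days. On day 0 the ratio of WT to CTCF-K20R ran from 3.60 to 7.93 over the 4 pairs of libraries, and none of their 95% counting intervals held 1. On day 4 it ran from 2.43 to 3.56, and 3 of the 4 intervals held 1. These intervals cover counting error only, and the 4 pairs are not independent, since each WT pair counts as 1 sample. Tbx2 and Tbx4 thus stood on the same side of WT on day 0 and on opposite sides on day 4.

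Tbx1 (ENSMUSG00000009097, chr16:18580979-18590671, minus strand), a gene of the pharynx and second heart field, was between 1.07 and 4.95 normalized counts in all 8 libraries, about 1 to 5 reads. In EBs it was at 4.95 and 4.18 in WT and 3.61 and 1.07 in CTCF-K20R, and each of the 4 counting intervals of their ratio held 1. A difference was not detectable at this depth.

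**Figure D3:**
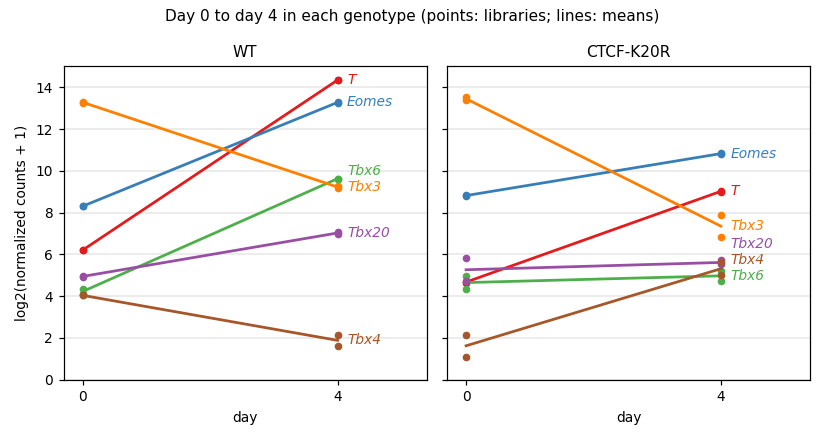
The log2(normalized counts + 1) of the 6 tested T-box genes (vertical axis) on day 0 and day 4 (horizontal axis) in WT and CTCF-K20R cells, with points for libraries and lines between the means. The lines of T and Eomes slope up and that of Tbx3 down in both panels, that of Tbx6 goes up by 5.39 in WT and by 0.32 in CTCF-K20R, and that of Tbx4 slopes down in WT and up in CTCF-K20R.

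The T-box set changed its make-up between the groups. Levels of different genes were compared per kilobase of exon, as normalized counts divided by exon length, and each gene was given as a share of the summed level of the 8. Tbx3 made up 92.0% in WT mESCs and 92.5% in CTCF-K20R mESCs. In WT EBs T was first with 75.4%, followed by Eomes with 20.0% and Tbx6 with 3.67%. In CTCF-K20R EBs Eomes was first with 60.5%, followed by T with 31.0%. Tbx3 and Tbx6 changed places there between the libraries, with Tbx3 at 2.36% and 4.88% and Tbx6 at 2.80% and 1.97%. The ratio of T to Eomes per kilobase was 3.74 and 3.80 in WT EBs, and 0.506 and 0.520 in the mutant EBs. In mESCs it was 0.414 in both WT libraries and 0.0985 and 0.0977 in the CTCF-K20R libraries. On both days T was the lower of the 2 relative to Eomes in the mutant, and the groups did not overlap.

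**Figure D4:**
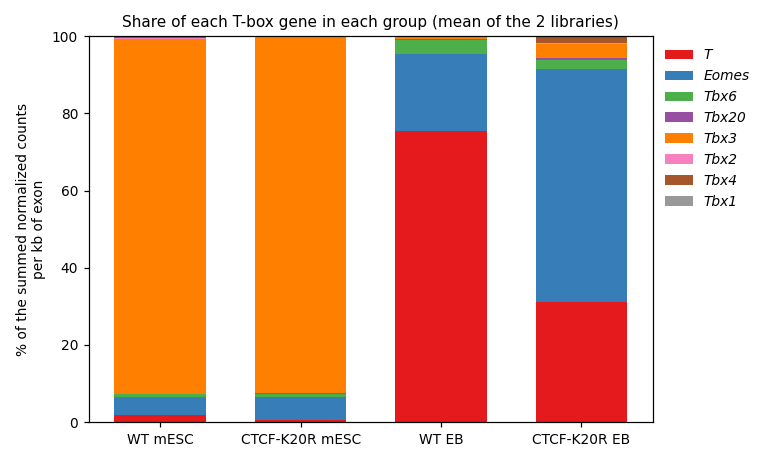
The share of each T-box gene in the summed normalized counts per kilobase of exon of the 8 genes (vertical axis, percent), as the mean of the 2 libraries of each group. Tbx3 fills most of both mESC bars, T leads in WT EBs (75.4%) and Eomes in CTCF-K20R EBs (60.5%).

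The 8 genes together summed to 10515 and 10313 normalized counts in WT mESCs and to 11301 and 12217 in CTCF-K20R mESCs. They summed to 32137 and 32328 in WT EBs and to 2597 and 2655 in CTCF-K20R EBs. WT EBs were thus above WT mESCs in this sum, and CTCF-K20R EBs were below CTCF-K20R mESCs.

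Of 9 further T-box genes, 6 were in the table and 5 were tested, and by limma 0 were called on either day, where 15.5% and 3.79% of all genes were called in either direction. At an unadjusted p under 0.05 there were 2 of 5 on day 4 and 3 of 5 on day 0, against 49.8% and 31.5% of all tested genes. Their median log2 fold change on day 4 was -0.38. Mga, which carries a T-box and a MAX-binding domain and acts as a repressor in mESCs, was at 11015 to 11160 normalized counts in WT mESCs and 7254 to 7558 in CTCF-K20R mESCs. Its day 0 fold change was -0.58 (adjusted p = 0.00161, limma) and its day 4 fold change 0.14 (adjusted p = 0.0403), both under the minimum fold. Tbx5, a gene of the first heart field, was at 37.3 to 38.7 in WT mESCs and 83.1 to 84.7 in CTCF-K20R mESCs, and at 37.4 to 40.4 in WT EBs and 65.4 to 87.0 in CTCF-K20R EBs. Its fold changes of 1.12 on day 0 and 0.94 on day 4 were not called (adjusted p = 0.0625 and 0.0553, limma). Tbx21, known from T helper cells, was at 15.8 to 17.0 in WT mESCs and 58.0 to 67.5 in CTCF-K20R mESCs (fold change 1.87, adjusted p = 0.0729, limma), and its genotype difference fell by 2.92 between the days (-2.92, adjusted p = 0.0401). Tbx21 passed the filter only through its CTCF-K20R mESC libraries, where it is high. In EBs it was at 7.11 to 8.41 in WT and 2.16 to 4.66 in CTCF-K20R. Tbr1, Tbx15 and Tbx18 had values between 1.15 and 22.3 normalized counts in all libraries.

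Genes described as downstream of T, Eomes or Tbx6 were lower in CTCF-K20R EBs. Of 17 listed genes, 16 were tested and 15 of them were called lower on day 4, against 8.65% of all tested genes. Their median log2 fold change was -5.38. This median was the same with the 1 gene at 0 in a group set to its floor. The list was chosen with earlier results of these data known and is not independent evidence of its direction. Lhx1, Cer1, Mesp1, Msgn1, Sox17 and Wnt3a also passed the filter only through WT EBs, where they are high. The filter therefore favoured lower calls in this count and median. Lhx1, an early mesoderm and node gene, was at 15499 to 15710 normalized counts in WT EBs and 6.65 to 6.78 in CTCF-K20R EBs (fold change -10.98 ± 0.485, adjusted p = 9.65e-05, limma). Cer1, a secreted Nodal and Wnt antagonist, was at 7871 to 7907 against 8.01 to 8.76 (-9.72 ± 0.593, adjusted p = 0.000231). Mesp1, the first gene of the cardiac progenitors and a target of Eomes, was at 1693 to 1697 against 1.07 to 2.40, about 1 and 2 reads in the mutant libraries (adjusted p = 0.000197). Its ratio of WT to CTCF-K20R lay between 740 and 1560 over the pairs of libraries, with 95% counting intervals between 204 and 61600.

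Msgn1, a presomitic mesoderm gene and a target of T and Tbx6, was at 881.0 to 884.2 in WT EBs and at 0 in both CTCF-K20R EB libraries. Against the floor of 3 reads per library it was at least 257-fold lower. Mixl1, a homeobox gene of the streak, was at 3889 to 3898 against 40.3 to 60.6 (-6.27 ± 0.483, adjusted p = 0.000489, limma). Fgf8, a growth factor of the streak, was the tested gene not called, at 1925 to 1956 against 718.9 to 764.8 (-1.39 ± 0.454, adjusted p = 0.0590). Fgf8 rose by 6.35 on the log2 scale in CTCF-K20R cells. On day 0, Gsc, an organizer gene, was called higher, at 24.8 to 38.6 in CTCF-K20R mESCs against 4.84 to 5.79 in WT mESCs (2.34, adjusted p = 0.0188, limma).

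**Figure D5:**
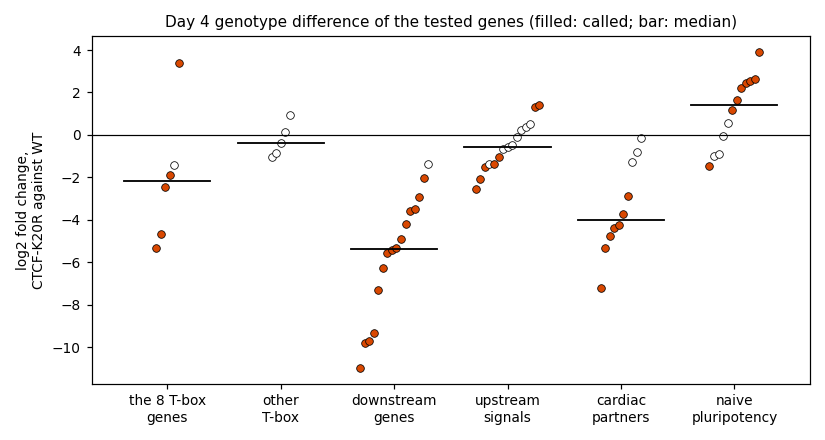
The day 4 log2 fold change of CTCF-K20R against WT (vertical axis) for each tested gene of the 8 T-box genes and of 5 gene lists, with filled points for called genes and bars for medians. The medians are -2.16, -0.38, -5.38, -0.56, -4.00 and 1.42 from left to right.

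The signals upstream of T and Eomes moved in both directions. Of 15 listed genes, all tested, 5 were called lower and 2 higher on day 4, against 8.65% and 6.89% of all tested genes, with a median of -0.56. Wnt3, the ligand that induces T, was at 1259 to 1261 normalized counts in WT EBs and 290.8 to 305.0 in CTCF-K20R EBs (-2.08 ± 0.505, adjusted p = 0.0236, limma). Nodal, the ligand upstream of Eomes, was higher in the mutant, at 1899 to 1942 against 756.8 to 776.7 (1.32 ± 0.0595, adjusted p = 0.000102). Its co-receptor Tdgf1 was lower, at 11495 to 11856 against 23669 to 23707 (-1.02 ± 0.0326, adjusted p = 4.17e-05), and so was Foxh1, the DNA-binding partner of its SMADs, at 1470 to 1513 against 3833 to 3858 (-1.37 ± 0.0717, adjusted p = 0.000152).

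Bmp4 was lower, at 39.0 to 47.7 in CTCF-K20R EBs against 254.3 to 255.9 in WT EBs (-2.54 ± 0.201, adjusted p = 0.000541, limma). Fgf4 was higher, at 899.7 to 934.3 against 341.0 to 355.1 (1.39 ± 0.0555, adjusted p = 7.42e-05). Lef1, a DNA-binding effector of Wnt signalling, was lower on both days, with -1.52 on day 4 (adjusted p = 0.000528) and -1.52 on day 0 (adjusted p = 0.00227), and was the gene of this list called on day 0. In mESCs Lef1 was at 221.1 to 230.2 in WT and 75.3 to 80.5 in CTCF-K20R, the same order as for T. The receptors and SMADs on the list, Acvr1b, Acvr2b, Smad2, Smad3 and Smad4, had day 4 fold changes between -0.67 and 0.22 and were not called.

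Of 12 genes described as partners of the cardiac T-box factors, 11 were in the table and 10 were tested. On day 4, 7 were called lower and 0 higher by limma, against 8.65% and 6.89% of all tested genes, with a median of -4.00. At an unadjusted p under 0.05 the counts were also 7 and 0 of 10, where 49.8% of all tested genes passed in either direction. Gata6, Hand1, Hand2 and Bmp2, all called lower, passed the filter only through WT EBs, where they are high. The filter therefore favoured lower calls in this count and median. Gata6, a factor of cardiac mesoderm and endoderm, was at 1205 to 1207 normalized counts in WT EBs and 4.69 to 10.7 in CTCF-K20R EBs (-7.21 ± 0.546, adjusted p = 0.000464). Gata4 was at 1467 to 1476 against 55.3 to 87.4 (-4.38 ± 0.361, adjusted p = 0.000607). Myl7, an atrial myosin light chain, was at 162.5 to 165.5 against 20.5 to 21.8 (-2.90 ± 0.245, adjusted p = 0.000654). Nkx2-5, Gata5 and Mef2c were not called, at -0.81, -0.16 and -1.29. On day 0, Mef2c was called lower (adjusted p = 0.0389), with values of 4.16 to 4.18 in WT mESCs and 0 in both CTCF-K20R mESC libraries. The WT values lie close to the floor of 3 reads, 2.85 to 3.40 there, and Mef2c passed the filter only through its EB libraries.

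Tbx3 was lower in CTCF-K20R EBs, and most other naive pluripotency genes tested were not. Of 12 such genes, 7 were called higher in CTCF-K20R EBs and 1 lower, with a median of 1.42, against 6.89% and 8.65% of all tested genes. At an unadjusted p under 0.05 in limma, 8 were higher and 3 lower on day 4, where 49.8% of all tested genes passed in either direction. On day 0, 0 were called in either direction by limma, with 6 at an unadjusted p under 0.05, against 31.5% of all tested genes. On day 0, Klf2, Klf5 and Zfp42 had adjusted p of 0.00918, 0.0335 and 0.0420 with fold changes of 0.84, -0.40 and 0.25, under the minimum fold. Tcl1 was at 32.7 to 43.6 normalized counts in CTCF-K20R EBs and 0.959 to 2.22 in WT EBs, about 1 and 3 reads (adjusted p = 0.000163, limma). Its ratio of CTCF-K20R to WT lay between 13.4 and 45.3 over the pairs of libraries, with 95% counting intervals between 4.16 and 1830. Esrrb, an orphan nuclear receptor of the naive network, was at 441.1 to 479.8 against 71.5 to 73.6 (2.65 ± 0.0673, adjusted p = 2.53e-05). Klf2 was at 387.0 to 450.8 against 69.7 to 73.4 (2.53 ± 0.109, adjusted p = 9.1e-05), and Nr0b1 at 54.5 to 70.3 against 10.6 in both WT libraries (2.44 ± 0.205, adjusted p = 0.000645). The gene called lower beside Tbx3 was Klf4, at 30.8 to 44.3 against 104.5 to 105.8 (-1.48 ± 0.214, adjusted p = 0.00405). Prdm14, Gbx2 and Klf5 were also lower in both mutant EB libraries but were not called, at -0.89, -0.99 and -0.07.

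For each of the 5 members whose mean reached 50 normalized counts, the 3 genes with the most similar course were found as those with the smallest root mean square distance between centred log2(value + 1) values over the 8 libraries, taken from the genes whose mean reached 100. The distance describes these libraries and is not a test. T was closest to Amot (0.46), F5 (0.57) and Dgkk (0.65), where the median gene was 3.70 away. Amot, which binds YAP, was at 98.0 on average in WT mESCs, 37.6 in CTCF-K20R mESCs, 25079 in WT EBs and 1372 in CTCF-K20R EBs. Eomes was closest to Prkd1 (0.22), Krt8 (0.24) and Id1 (0.26), where the median gene was 1.98 away. Krt8 encodes an epithelial keratin and Id1 is a target of BMP signalling.

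Tbx6 was closest to Cdx2 (0.35), Slit1 (0.36) and Sp5 (0.36), where the median gene was 2.22 away. Sp5, a target of Wnt signalling, was at 85.2 and 88.7 on average in WT and CTCF-K20R mESCs, at 4158 in WT EBs and at 127.3 in CTCF-K20R EBs. Tbx3 was closest to Lrrc34 (0.35), Islr2 (0.39) and Myof (0.40), where the median gene was 2.65 away. Tbx20 was closest to Ppfibp1 (0.24), Rab8b (0.24) and Tmc4 (0.26), but the median gene was only 0.91 away from it. Among the members themselves, Eomes and Tbx6 had the closest courses of the tested genes (0.86), T was 1.86 from Eomes and 1.85 from Tbx6, and T and Tbx3 were furthest apart (5.83).

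The genes around the members were also compared. Over the 20 tested genes nearest to each member, the median day 4 log2 fold change was -0.41 around T, -0.08 around Eomes, 0.05 around Tbx6, 0.28 around Tbx3, -0.10 around Tbx4 and -0.05 around Tbx20. Between 0 and 6 of the 20 were called, where 15.5% of all tested genes were. The most were around T, with 6 of 20, which is the highest of the members and was not tested against the share of all genes. Of the same 20 genes, 0 were called on day 0 and 0 for the interaction, against 3.79% and 12.9% of all tested genes. Next to T, Pde10a, a phosphodiesterase gene 82.9 kb away, was at 168.3 to 178.5 normalized counts in WT EBs and 23.2 to 54.7 in CTCF-K20R EBs (-2.25 ± 0.648, adjusted p = 0.0402, limma). On the other side, T2, 10.9 kb away, had a fold change of -0.78 (adjusted p = 0.205). Next to Eomes, the noncoding gene Gm26975 (Platr11 in GENCODE), 72.1 kb away, was higher in the mutant, at 51.5 to 69.1 against 21.5 to 21.7 (1.43 ± 0.252, adjusted p = 0.00815), and Golga4 had a fold change of -0.19. Tbx6 lies between Ypel3, 0.970 kb away, and Ppp4c, 0.310 kb away, and their day 4 fold changes were 0.05 and -0.08. Brip1, beyond Tbx4, had a fold change of -0.37 (adjusted p = 0.175).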

How the data were processed

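Poly(A) RNA of 8 libraries was sequenced by the authors, who trimmed the reads with Trim Galore, quantified them with salmon on mm10 transcripts, summed transcripts to genes and normalized the counts with DESeq2. The deposited values are a signal, these normalized counts per gene and library. They are not whole reads, so no count model was used. The annotation release and the use of strand are not given in the sources used here. All 8 columns were matched to samples by name, and 0 other value columns were found.

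Genes were tested with limma 3.58.1 (R 4.3.3) on log2(value + 1), with a mean-variance trend and 1 mean per group over 6 samples (2 residual and 3.51 prior degrees of freedom), two-sided, with Benjamini-Hochberg adjustment over 15767 genes. WT day 4 against day 0 has 1 sample each and no test. Ratios of low values carry exact 95% binomial intervals of the approximate reads, which cover counting error only. Lists were described by counts of calls and medians: other T-box genes, downstream genes, upstream signals, cardiac partners, naive pluripotency genes, and markers of pluripotent cells, fibroblasts, trophoblast, visceral endoderm, neural ectoderm and germ cells. From each list, up to 4 genes with the largest day 4 change and a mean of at least 100 were named, with Mesp1 and Msgn1; further genes are named to complete a count or a role, chosen after their values were seen. The members and lists were chosen with earlier results of these data known. Positions came from GENCODE vM21 (GRCm38) and promoters from RefSeq (GRCm38.p6). Alternatives were all 8 libraries as separate samples, a replicate block, other pseudocounts (0.1 and 5), filters, scalings and thresholds, only the groups compared, no trend, and each library left out.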

Additional observations from a re-analysis of the deposited data

Results flagged for a closer look

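For 5 T-box genes the genotype difference on day 4 differed from that on day 0 by the interaction term of the limma fit. On the log2 scale the shift was -3.80 for T, -2.96 for Eomes, -5.07 for Tbx6 and -2.05 for Tbx3, each towards a lower level in the mutant on day 4, and 5.82 for Tbx4, towards a higher one. T and Eomes kept this call in all 19 alternatives tried, Tbx6 in 17 of 19, Tbx4 in 16 of 18 and Tbx3 in 13 of 19. For Tbx4, both the WT EB and the CTCF-K20R mESC libraries held about 4 reads or fewer, and the gene passed the filter only through the CTCF-K20R EB libraries.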

How the results depend on the processing

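On day 4, T, Eomes and Tbx6 kept their calls in all 20 alternatives, with fold changes of -5.43 to -5.32, -2.62 to -2.42 and -4.89 to -4.40. At an adjusted p under 0.01, 3 members in place of 5 were called on day 4, since Tbx3 and Tbx4 were lost. On day 0, 2 members were called with all 8 libraries as separate samples (T and Tbx4) and 2 with no minimum fold change (T and Eomes), and 0 with only the libraries compared. Leaving out 1 library at a time gave 0 to 1 members called on day 0 and 3 to 5 for the interaction. Tbx20 reversed, without being called, on day 0 without CTCF-K20R mESC replicate 1 (-0.24, against 0.87 without replicate 2) and in the CTCF-K20R change over days without replicate 2 (-0.21, against 0.91 without replicate 1).

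Over all genes, the 598 calls on day 0 became 1348 with all 8 libraries as separate samples, 146 with only the libraries compared, 56 with no mean-variance trend, 234 at an adjusted p under 0.01 and 2429 with no minimum fold change. Leaving out 1 library at a time gave 0 to 615 calls on day 0, 1590 to 2474 on day 4 (2451 with all) and 885 to 2059 for the interaction (2031 with all). The 0 calls came without CTCF-K20R EB replicate 1 or 2, where limma gave 4500 and 4507 genes at an unadjusted p under 0.05. The interaction had 3340 calls with 8 separate samples, 1113 at an adjusted p under 0.01 and 4200 with no minimum fold change. With no minimum fold change, 6329 genes were called on day 4 and 9221 for the CTCF-K20R change over days (4117 with it). Quantile normalization moved the share of higher calls on day 0 from 31.4% to 41.9% and on day 4 from 44.3% to 53.7% (1448 higher and 1249 lower), and dividing by the library total moved the latter to 36.9% (926 higher and 1586 lower). That scaling moved the median of all genes on day 4 by -0.10. The cause of these changes was not tested.

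Replicate numbers did not mark shared cultures in the labels, and the deviations of same-numbered libraries were uncorrelated (-0.04 to 0). With the replicate block, 2445 genes were called on day 4 and 579 on day 0, and no call of a member changed. Where a CTCF-K20R library was left out, the lone library was assumed to vary like the other group. With 1 WT sample and 2 CTCF-K20R samples a day, and with Tbx1, Tbx2 and Tbx4 at about 1 to 18 reads in most libraries, small differences could not be shown.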

Other observations

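Markers of 2 further cell types were measured beside the T-box genes. Over all tested genes, 6.89% were called higher and 8.65% lower on day 4. Of 6 germ cell markers, 4 were tested on day 4, and 1 was called in each direction. Prdm1, which also marks endoderm and primordial germ cells, was at 659.4 to 684.7 normalized counts in WT EBs and 49.1 to 50.7 in CTCF-K20R EBs (-3.72 ± 0.185, adjusted p = 0.000136, limma). Dazl was at 5.73 to 5.80 against 36.2 to 53.1 (2.73 ± 0.301, adjusted p = 0.00161). Of 8 visceral endoderm markers, 4 were tested and 1, Amn, was called higher (1.64, adjusted p = 0.0383). Afp and Ttr, which define that tissue, were at 0 in all 4 mESC libraries and between 0 and 5.74 in the EB libraries. Of the 10 fibroblast markers, 7 were tested on day 4, with 2 called higher (Thy1 and Col3a1) and 2 lower (Prrx1 and Postn). Col3a1 passed the filter only through CTCF-K20R EBs, and Prrx1 and Postn only through WT EBs. These are the groups where they are high, so the filter favoured the direction of their calls.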
